A study of Homo sapiens with 4 samples.

Results

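Enzymes that supply glutamine, glutamate, aspartate, asparagine and serine were followed by their knockout sgRNAs in HCT116 cells treated with oxaliplatin. Members were taken as every sgRNA whose gene label was one of 9 listed enzymes (GLS2, GLUL, GLUD1, GOT1, GOT2, ASNS, PHGDH, PSAT1 and PSPH), which gave 8 enzymes and 32 sgRNAs out of 1773 genes and 7142 sgRNAs. PSAT1, the aminotransferase step of serine synthesis, is not analysed here. HCT116 is an established human colon carcinoma line, and oxaliplatin is a platinum drug that crosslinks DNA. All 4 libraries came from 1 pool of cells that carried a lentiviral Cas9 library of sgRNAs against metabolic enzymes, 4 per gene, and had been selected with puromycin. After the pool was split, 1 culture received PBS and 3 cultures (replicates 1 to 3) received 10 µM oxaliplatin, each for 7 days, and sgRNAs were counted in the DNA of the surviving cells. The counts report how abundant each knockout was among survivors, not how much of an enzyme the cells made. The control is a single culture, and no library from before the treatment was used here. Counts said to go from PBS to oxaliplatin therefore compare parallel cultures, not time points. The sources do not say how the 3 treated cultures were kept apart. The p-values measure only the spread between the oxaliplatin libraries, and PBS is assumed to vary like them.

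As background, the glutaminase GLS2 turns glutamine into glutamate, and glutamine synthetase (GLUL) runs the opposite way. Glutamate dehydrogenase (GLUD1) feeds glutamate into the citrate cycle as 2-oxoglutarate. The transaminases GOT1 in the cytosol and GOT2 in mitochondria exchange glutamate and aspartate, and asparagine synthetase (ASNS) makes asparagine from aspartate with nitrogen from glutamine. Serine is made from a glycolytic intermediate by PHGDH, PSAT1 and PSPH in turn. Aspartate and serine carbon goes into nucleotides, which dividing cells need to copy and repair DNA.

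Library totals ran from 8934799 counts with PBS to 27563013 in oxaliplatin replicate 1, and replicates 2 and 3 held 10494731 and 11146921. The totals did not follow the typical sgRNA: the median count per sgRNA was 657 with PBS and 495, 695 and 881 in replicates 1 to 3. In the PBS library, 27.0% of all sgRNAs had under 3 counts, against 7 sgRNAs in replicate 3. Of the 32 member sgRNAs, 7 were under 3 counts with PBS (21.9%, exact 95% interval 9.28 to 39.97%). None was under 3 counts in an oxaliplatin library. These intervals cover counting error only. Counts were scaled by median-ratio size factors. On that scale the median gene had a log2 fold change (oxaliplatin over PBS) of 0.69, which was 0.80 with TMM factors and 0.03 with total counts, and each member is read against it.

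No knockout of the 8 enzymes was called when its 4 sgRNAs were summed. Of the 32 single sgRNAs 2 were called higher, 1 each for the aspartate transaminases GOT1 and GOT2, where 7.16% of the whole table were, and none was called lower. Both called sgRNAs entered the test only through the libraries in which they were high, so the calls are no support for a change. ASNS and PSPH had the lowest median log2 fold changes, at -1.70 ± 0.53 and -2.10 ± 0.32 (SD, n = 3 oxaliplatin libraries), below all but 3.27% and 1.52% of genes. These shares take in genes with sgRNAs near 0 with PBS. All sgRNAs of ASNS and PSPH had at least 100 PBS counts, and over such sgRNAs the whole-table median was -0.45. GOT1 and GOT2 had the highest medians, at 4.60 ± 0.95 and 4.95 ± 0.70, but those medians rest on sgRNAs that were at 0 to 3 counts in the PBS library.

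By edgeR's quasi-likelihood test with Benjamini-Hochberg adjustment over all 7106 sgRNAs tested, 2 of the 32 member sgRNAs were called higher with oxaliplatin, where 7.16% of all were, and 0 were called lower, where 0% of all sgRNAs were. At an unadjusted p under 0.05, 6 member sgRNAs were higher and 2 lower, against 25.6% and 1.83% of all sgRNAs tested. DESeq2 called 8 members higher and 0 lower, against 28.5% and 0.408% of all. With only 32 member sgRNAs these counts are a description, and no difference from the whole table was tested. On counts summed per gene, edgeR called none of the 8 enzymes, and of all 1773 genes 0% higher and 0% lower. Unadjusted, 76 genes were higher and 18 lower, and DESeq2 called 111 and 15, none of them an enzyme of this set. With 1 PBS library, edgeR assumes that PBS varies as the oxaliplatin libraries do, and an exact permutation test of 1 against 3 could not go below 0.25.

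Oxaliplatin replicate 1 stood apart from the other treated libraries. Over all sgRNAs, 16.8% were more than 4-fold above both replicates 2 and 3 there and 24.3% more than 4-fold below both. Among the member sgRNAs 5 were above and 9 below. Without replicate 1 the common dispersion of edgeR's sgRNA fit went from 0.796 to 0.113. The summed results of the members and of named genes that became calls are therefore given with and without it. In the fit without it the spread comes from replicates 2 and 3 alone. Small p-values there do not measure how PBS cultures vary. In that fit 10 member sgRNAs were called higher and 6 lower, against 37.7% and 15.7% of all sgRNAs.

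A count that lay on the same side of PBS in all 3 oxaliplatin libraries is a description that uses no fitted spread. Of the 32 member sgRNAs, 11 had every oxaliplatin library below PBS, against 28.1% of all sgRNAs, and 14 had every one above PBS, against 42% of all. These shares went with the PBS count. All 8 members with under 10 PBS counts were higher in every oxaliplatin library, as were 94.2% of such sgRNAs in the whole table. Of the 24 members with at least 100 PBS counts, 6 were above PBS in every library and 11 below, against 18.7% and 40.6% of such sgRNAs overall.

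**Figure D1:**
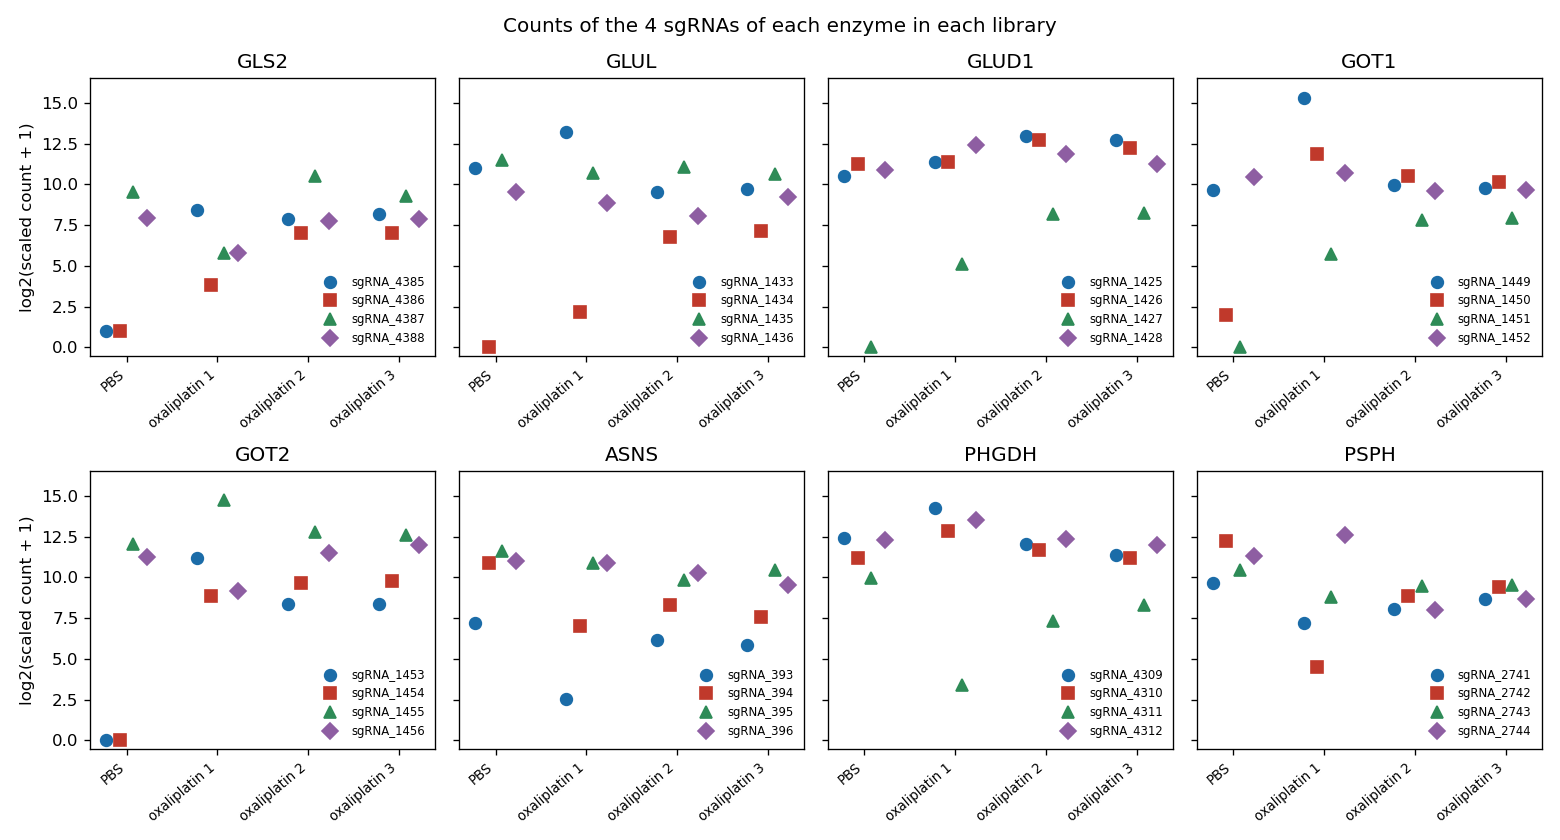
Each panel plots, for 1 enzyme, the scaled counts of its 4 sgRNAs on a log2(count + 1) axis in the PBS library and oxaliplatin replicates 1 to 3, with 1 marker shape per sgRNA and small sideways offsets for legibility. The points near 0 with PBS in GLS2, GLUL, GLUD1, GOT1 and GOT2 are the 8 sgRNAs with under 10 counts there, and all 4 ASNS sgRNAs lie below their PBS point in each oxaliplatin library.

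Among the glutamine and glutamate enzymes, GLS2 is best known from liver. Its sgRNA_4385 had 1 count with PBS and 290, 232 and 358 in replicates 1 to 3. Next, sgRNA_4386 also had 1 count with PBS and then 11, 127 and 154. The other 2 had 746 and 244 counts with PBS. Of these, sgRNA_4387 read 45, 1479 and 778 with oxaliplatin, on both sides of PBS, and sgRNA_4388 read 45, 212 and 292. After scaling, the sgRNAs of 1 gene thus went in different directions. The median log2 fold change of GLS2 was 2.26 ± 1.68 (SD, n = 3), 3.22 without replicate 1, and -0.91 over the 2 sgRNAs with at least 100 PBS counts. Its summed counts of 992 with PBS and 391, 2050 and 1582 with oxaliplatin gave an edgeR log2 fold change of 0.34 (SE 0.96, adjusted p = 0.912).

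GLUL makes glutamine from glutamate and ammonia. One of its sgRNAs, sgRNA_1434, had 0 counts with PBS and 3, 107 and 175 with oxaliplatin, which against a floor of 3 counts in the PBS library was at least 1.20-fold, 35.2-fold and 47.1-fold higher. The best covered, sgRNA_1435, went from 2886 to 1372, 2116 and 1946, and sgRNA_1436 from 722 to 381, 266 and 718. After scaling both lay below PBS in every oxaliplatin library. For sgRNA_1433 the libraries split, since 2004 counts with PBS became 7760 in replicate 1 and 743 and 1044 in replicates 2 and 3. The median for GLUL was -0.26 ± 0.92 (SD, n = 3), and on summed counts the log2 fold change was 0.07 (SE 1.00, edgeR adjusted p = 0.977). Without replicate 1 the summed value turned to -0.66 (edgeR adjusted p = 0.0494).

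GLUD1 releases ammonia from glutamate in mitochondria. It was the only enzyme of the 8 whose sgRNAs all lay above PBS in every oxaliplatin library, as 3.95% of all genes did, but with total-count scaling this held for 1 of its 4 sgRNAs. Counts of sgRNA_1425 were 1446 with PBS and 2180, 8182 and 8209 with oxaliplatin, or 1.81, 5.58 and 4.59 times PBS after scaling. For sgRNA_1426 they were 2455, then 2164, 6764 and 5850, and for sgRNA_1428 1893, then 4419, 3680 and 2996. In replicate 1 sgRNA_1426 was only 1.06 times PBS after scaling. Its exact 95% counting interval there, 0.996 to 1.12, took in no difference from PBS. No count of these 3 sgRNAs was low in any library. The fourth, sgRNA_1427, had 0 counts with PBS and 28, 288 and 371 with oxaliplatin, at least 11.2-fold, 94.6-fold and 99.9-fold higher (edgeR adjusted p = 0.0922, and 2.9e-07 without replicate 1). With no PBS count sgRNA_1427 entered the test only through the oxaliplatin libraries, so these p-values are no support for a change. The median was 1.57 ± 0.40 (SD, n = 3), above that of 63.6% of genes, or 1.08 over the 3 well-covered sgRNAs. Summed counts of 5794, 8791, 18914 and 17426 gave 1.32 (SE 0.99, edgeR adjusted p = 0.847), and 1.66 without replicate 1 (edgeR adjusted p = 1.7e-04). GLUD2, a retrocopy with a nearly identical coding sequence, had a median of 2.46 ± 0.36 (SD, n = 3), but 0.20 over its 2 sgRNAs with at least 100 PBS counts. It was named after its values were seen, and since sgRNA sequences were not used here, which of these sgRNAs could cut both genes is unknown.

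**Figure D2:**
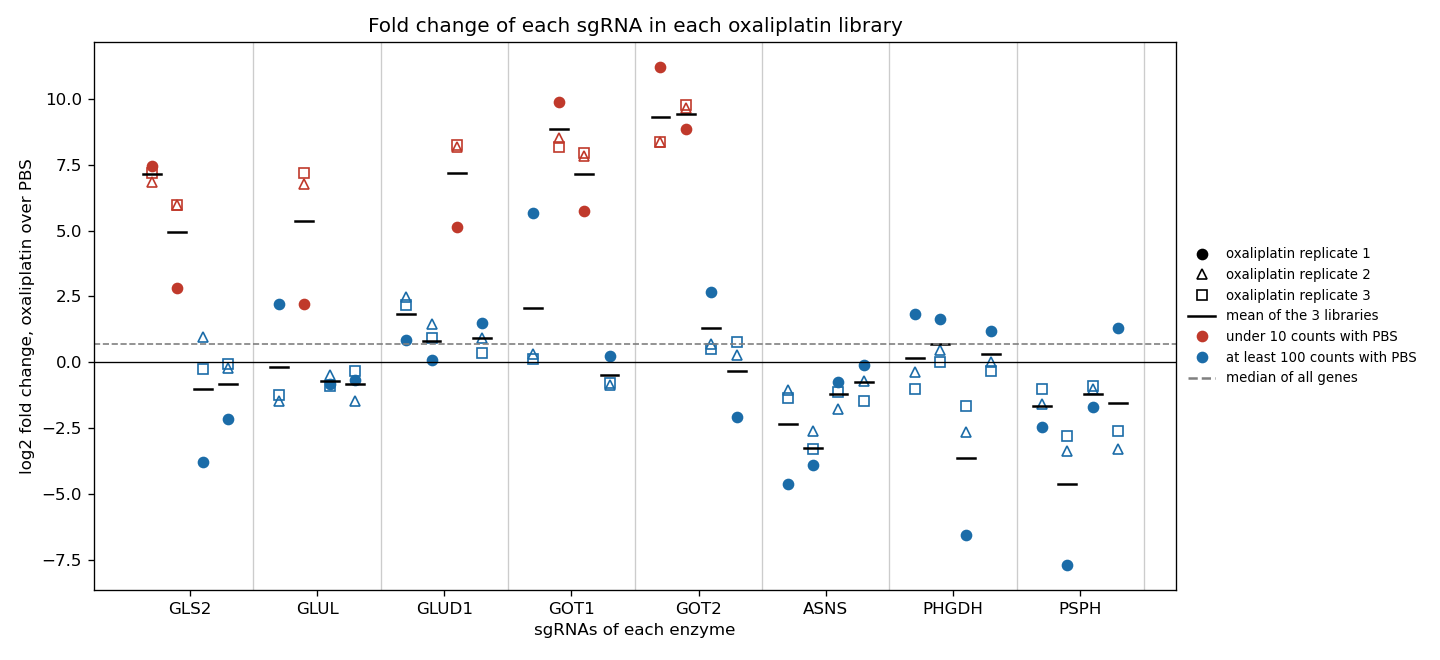
Points show the log2 fold change (oxaliplatin over PBS, scaled counts + 1) of each member sgRNA in each oxaliplatin library, grouped by enzyme, and short bars show the mean of the 3 libraries. Red points are the 8 sgRNAs with under 10 PBS counts, all above 0, blue points are the 24 with at least 100 PBS counts, and the dashed line is the median of all genes at 0.69.

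The aspartate transaminases gave the calls among the members. GOT1 works in the cytosol, where aspartate is used for nucleotides and redox exchange. Its sgRNA_1450 had 3 counts with PBS and 3095, 1471 and 1407 with oxaliplatin. After scaling these were 1236 times PBS (exact 95% counting interval 422 to 5995), 483 times (165 to 2347) and 379 times (129 to 1839). The edgeR adjusted p was 0.0445, but 0.0564 without replicate 3 and 0.131 among sgRNAs with at least 3 PBS counts, of which none in the table was called. With 3 PBS counts sgRNA_1450 entered the test only through the libraries in which it was high, so its call is no support for a change. A second sgRNA, sgRNA_1451, had 0 counts with PBS and 43, 224 and 299 with oxaliplatin, at least 17.2-fold, 73.6-fold and 80.5-fold higher (edgeR adjusted p = 0.0814, and 1.8e-06 without replicate 1). The same limit holds for the p-values of sgRNA_1451.

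The well-covered GOT1 sgRNAs looked different. For sgRNA_1449, 787 counts with PBS became 33312 in replicate 1 and 1002 and 1079 in replicates 2 and 3, so 1 library was 50.7 times PBS and the others 1.26 and 1.11 times. sgRNA_1452 went from 1380 to 1373, 765 and 992, or 1.19, 0.546 and 0.581 times PBS. Over these 2 sgRNAs the median log2 fold change was 0.79. Summed counts of 2170, 37823, 3462 and 3777 gave 2.99 (SE 2.19, edgeR adjusted p = 0.847), and 0.74 without replicate 1 (edgeR adjusted p = 0.0563).

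GOT2 is the mitochondrial partner in the malate-aspartate shuttle. Its sgRNA_1454 was at 0 with PBS and at 382, 801 and 1057 counts with oxaliplatin, at least 153-fold, 263-fold and 285-fold higher. With no PBS count it entered the test only through the libraries in which it was high, so its call is no support for a change. The edgeR adjusted p was 0.0445, and it missed the threshold without replicate 2 (edgeR adjusted p = 0.0515) or replicate 3 (edgeR adjusted p = 0.0821). Likewise at 0 with PBS, sgRNA_1453 had 1931, 325 and 397 counts, at least 771-fold, 107-fold and 107-fold higher (edgeR adjusted p = 0.0567, and 1.5e-07 without replicate 1). The same limit holds for the p-values of sgRNA_1453. Where GOT2 sgRNAs were well covered the libraries were less alike. Counts of sgRNA_1455 were above PBS in every library, at 4240 with PBS and 22334, 6989 and 7530, whereas sgRNA_1456 went from 2384 to 477 in replicate 1 and 2905 and 5035 in the others. Their median was 0.48. Summed counts of 6624, 25124, 11020 and 14019 gave 1.40 (SE 1.26, edgeR adjusted p = 0.847), and 0.91 without replicate 1 (edgeR adjusted p = 0.0190).

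ASNS, which also draws on aspartate, lay at the other end. All 4 of its sgRNAs were below PBS in every oxaliplatin library, as for 0.508% of all genes, 9 in number. For ASNS this held under TMM and total-count scaling and without each replicate. The number of such genes did not hold, and ran from 7 with TMM to 47 with total-count scaling. The largest difference was that of sgRNA_394, with 1871 counts with PBS and 105, 315 and 234 with oxaliplatin, or 0.0672, 0.166 and 0.101 times PBS (edgeR adjusted p = 0.0929, and 7.6e-06 without replicate 1). For sgRNA_395, 3052 counts became 1526, 906 and 1715, and for sgRNA_396, 2020 became 1560, 1252 and 917. The least abundant, sgRNA_393, went from 142 to 4, 70 and 69. All 4 sgRNAs thus had at least 100 counts with PBS, and they differed from each other by 2.50 on the log2 scale, against a median spread of 8.51 within a gene over all genes. Both references, 0.508% and 8.51, take in genes with sgRNAs near 0 with PBS. Summed counts were 7085 with PBS and 3195, 2543 and 2935 with oxaliplatin. Their log2 fold change was -1.29 (SE 0.60, edgeR adjusted p = 0.847, unadjusted p = 0.0787) and -1.37 without replicate 1 (edgeR adjusted p = 8.42e-06). Among the 1773 genes ordered by summed count, ASNS was at place 407 with PBS and at 1244, 1280 and 1315 with oxaliplatin, an order that needs no scaling.

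The serine enzymes had no sgRNA under 100 counts with PBS. PHGDH, which takes the first and committing step, was among the most abundant knockouts, with 13643 summed counts with PBS, place 52 of 1773, and 31799, 12811 and 11506 with oxaliplatin, places 211, 145 and 212. Its sgRNA_4312 read 4985 with PBS and 9538, 5169 and 4965 with oxaliplatin. For sgRNA_4309 the counts were 5346, then 16126, 4216 and 3258, and for sgRNA_4310 2338, then 6127, 3269 and 2905. These 3 sgRNAs were above PBS in replicate 1 and between 0.492 and 1.38 times PBS in the others. sgRNA_4311 was unlike them, at 974 with PBS and 8, 157 and 378 with oxaliplatin, below PBS in each library. The median for PHGDH was 0.20 ± 1.09 (SD, n = 3), and the summed log2 fold change of 0.55 (SE 1.44, edgeR adjusted p = 0.905) became -0.15 without replicate 1 (edgeR adjusted p = 0.765).

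PSPH removes the phosphate in the last step to serine. Its sgRNA_2742 went from 4655 counts with PBS to 18, 459 and 836, or 0.00463, 0.0972 and 0.145 times PBS (edgeR adjusted p = 0.176, and 6.1e-07 without replicate 1). Less far below PBS in every library were sgRNA_2741, with 793 and then 122, 268 and 491, and sgRNA_2743, with 1403 and then 366, 709 and 924. The fourth, sgRNA_2744, split by library, with 2518 counts with PBS, 5192 in replicate 1, and 259 and 506 in replicates 2 and 3. Thus 3 of 4 sgRNAs were below PBS throughout, and all 4 were in replicates 2 and 3. Among all sgRNAs with at least 100 PBS counts, 40.6% were below PBS in every oxaliplatin library. Summed counts of 9369 with PBS and 5698, 1695 and 2757 with oxaliplatin gave -1.39 (SE 0.91, edgeR adjusted p = 0.847), and -2.10 without replicate 1 (edgeR adjusted p = 2.2e-12). In order of summed counts PSPH was at place 216 with PBS and at 964, 1488 and 1356 with oxaliplatin. These places too are relative to genes with sgRNAs near 0 with PBS.

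**Figure D3:**
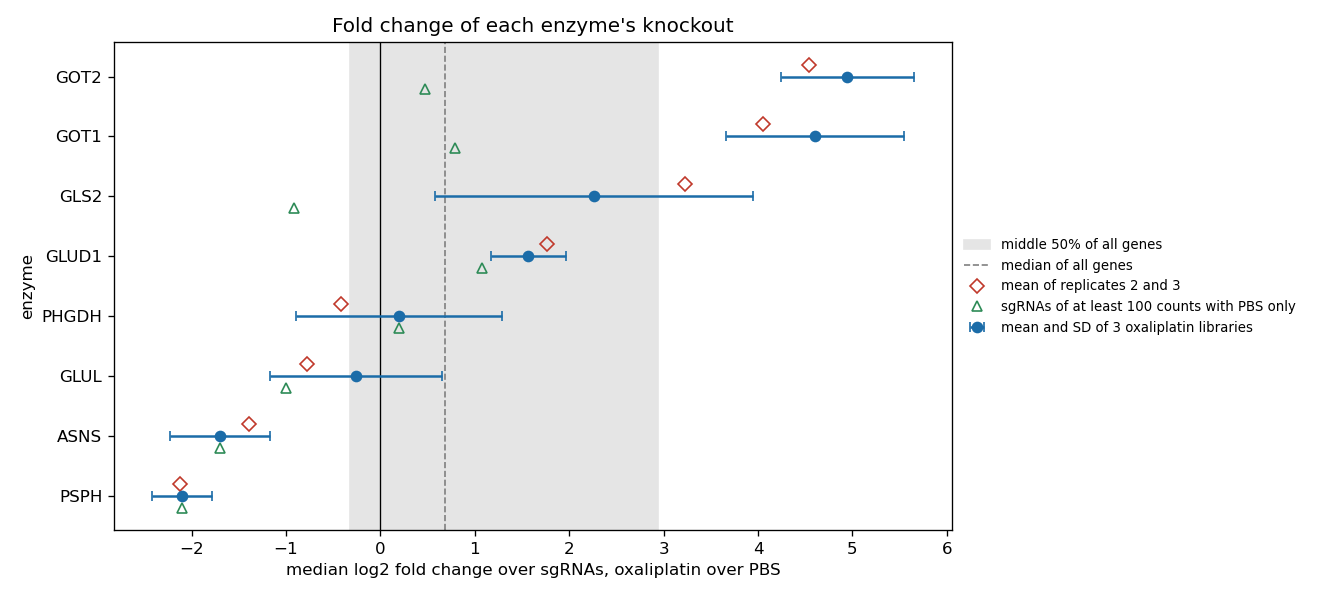
Blue points and bars give, for each enzyme, the mean and SD over the 3 oxaliplatin libraries of the median log2 fold change over its sgRNAs, red diamonds the mean of replicates 2 and 3, and green triangles the value over sgRNAs with at least 100 PBS counts only. The shaded band holds the middle 50% of all genes, from -0.32 to 2.94. ASNS and PSPH lie below it by each measure, and GOT1 and GOT2 lie above it only while their sgRNAs with 0 to 3 PBS counts are included. The band takes in sgRNAs near 0 with PBS, so it is no like reference for the green triangles, or for ASNS and PSPH. Over sgRNAs with at least 100 PBS counts the whole-table median was -0.45.

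Set side by side, the groups held too few sgRNAs to differ clearly in the share under 3 counts with PBS. That share was 27.0% over the whole table. Its exact interval was 9.92 to 65.1% for glutamine and glutamate and 5.49 to 57.2% for aspartate and asparagine. For serine synthesis it was 0 to 36.9%. Each interval took in 27.0%. Among the 12 sgRNAs of glutamine and glutamate enzymes, 4 were under 3 counts with PBS, and the median log2 fold change was 1.01 ± 0.31 (SD, n = 3 libraries). For the 12 of aspartate and asparagine enzymes 3 were under 3 counts and the median was 0.69 ± 0.66, while for the 8 of serine synthesis none was and it was -0.85 ± 0.55. Over the whole table it was 0.48 ± 0.41. Restricted to sgRNAs with at least 100 PBS counts, the medians were -0.027, -0.73 and -0.85, and -0.45 for the whole table. The difference between the groups was not tested, since sgRNAs of a gene are not replicates of the treatment and all fold changes share the PBS library. In order of their medians the 8 enzymes were PSPH, ASNS, GLUL, PHGDH, GLUD1, GLS2, GOT1 and GOT2, from -2.10 to 4.95. Their SDs hold no spread between PBS cultures, so this order was not tested either.

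With replicate 1 left out, 2 of the 8 enzymes were called higher on summed counts (GLUD1 and GOT2), where 26.1% of all genes were, and 3 lower (GLUL, ASNS and PSPH), where 11.3% were.

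The enzymes around this set were taken from 5 lists: users of glutamine's amide nitrogen, glutamate and 2-oxoglutarate exchange, proline and glutamate, the aspartate shuttle and its users, and serine and glycine use. Of 67 listed gene symbols 60 were measured, with 240 sgRNAs, and edgeR on summed counts called 0 higher and 0 lower. Most of the other symbols are second names of genes that were measured. Of the 240 sgRNAs, 23 were called higher, where 7.16% of the whole table were, and 0 lower. Medians over sgRNAs were 0.75, 0.33, 0.47, 0.41 and 0.50 for the lists in that order, against 0.48 for the whole table. Without replicate 1, 21 of the 60 genes were called higher and 8 lower, where 26.1% and 11.3% of all genes were.

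Among the serine users, SHMT2, which splits serine to glycine in mitochondria, had 2556 summed counts with PBS and 9416, 6151 and 6488 with oxaliplatin (edgeR adjusted p = 0.847, and 1.5e-04 without replicate 1). Only 1 of the 4 SHMT2 sgRNAs had at least 100 PBS counts, and its log2 fold change was -2.68, so the sign turned. The cytosolic counterpart SHMT1 had 10103, then 4394, 10430 and 10665 (edgeR adjusted p = 0.893). For GLDC, which cleaves glycine, the median was -1.11 ± 1.34 (SD, n = 3). For CBS, which joins serine to homocysteine, the direction turned with the measure. Its median was -1.10 ± 1.05 (SD, n = 3), and 0.24 over sgRNAs with at least 100 PBS counts. Its summed counts of 2567, then 1715, 6711 and 7527, gave 0.94 (edgeR adjusted p = 0.847), and 1.47 without replicate 1 (edgeR adjusted p = 2.0e-05). None of these 4 was called with all libraries, and SHMT2 and CBS were called higher without replicate 1.

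Among the aspartate users, ASS1, which condenses aspartate with citrulline, had 12 summed counts with PBS and 9205, 7679 and 6131 with oxaliplatin (edgeR adjusted p = 0.176, and 3.0e-64 without replicate 1). Of the 4 ASS1 sgRNAs 2 were at 0 with PBS and none reached 100 counts there, so these p-values rest on a PBS sum near 0. CAD starts pyrimidine synthesis from glutamine and aspartate and had 510, then 18789, 1183 and 1477 (edgeR adjusted p = 0.847, and 0.0122 without replicate 1). Of the 4 CAD sgRNAs 2 were at 0 with PBS, and the 2 with at least 100 PBS counts had a median of -1.27. The malate dehydrogenases MDH1 and MDH2, partners of GOT1 and GOT2 in the shuttle, had medians of -0.96 ± 0.72 and 0.59 ± 0.22 (SD, n = 3). MDH1 was called lower without replicate 1 (log2 fold change -1.01, edgeR adjusted p = 0.0087).

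Of the amide users, GFPT1, which makes glucosamine phosphate, was at 0 with PBS for all 4 sgRNAs and had 1580, 782 and 847 summed counts with oxaliplatin (edgeR adjusted p = 0.176, and 1.7e-17 without replicate 1). With no PBS count GFPT1 entered the test only through the libraries in which it was high, so these p-values are no support for a change. PPAT and CTPS1, which use glutamine for purines and CTP, had medians of 2.39 ± 1.86 and 0.72 ± 1.63 (SD, n = 3). Over sgRNAs with at least 100 PBS counts they were -2.87 and 0.59, so the sign for PPAT turned. In the proline branch the medians were 0.02 ± 0.83 for ALDH18A1, 0.33 ± 1.80 for PYCR1 and 2.60 ± 1.83 for OAT, which links ornithine to glutamate. For OAT the value over its 2 sgRNAs with at least 100 PBS counts was -2.79, and without replicate 1 its summed counts were called higher (0.72, edgeR adjusted p = 0.0463). The SDs of PPAT, CTPS1, PYCR1 and OAT were above 1 on the log2 scale.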

How the data were processed

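Counts of sgRNAs in genomic DNA of HCT116 cells were taken from the whole count table; the authors deposited raw counts made with MAGeCK (version not given in the sources used here), and each sample's own counts equalled its column for 100% of sgRNAs. The processing notes name the mouse build mm10 although the cells are human, and no coordinates were used. The members and lists were chosen with earlier results of these data known. Apart from GLUD2, the named enzymes were set by role: the 9 listed members, 15 direct makers or users from the pathway lists where measured, and any list gene passing the test on summed counts, of which there was none. The 50 single-sgRNA entries of the table entered scaling and the sgRNA test, not gene results.

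Counts were scaled with median-ratio size factors over all 4 libraries (0.988 for PBS and 0.825, 1.00 and 1.22 for oxaliplatin replicates 1 to 3). Fold changes are log2((oxaliplatin + 1)/(PBS + 1)), medians over sgRNAs, with mean and SD over 3 libraries. edgeR 4.0.16 (quasi-likelihood, filterByExpr, Benjamini-Hochberg, adjusted p under 0.05) was fitted in R 4.3.3 on the whole table and on sums per gene. The code was checked on simulated data of lower dispersion than these. Those data held neither the many sgRNAs near 0 with PBS nor a replicate apart, so the check does not cover them. An sgRNA at 0 with PBS was set at a floor of 3 counts per library for its bound. Alternatives were TMM, total counts, DESeq2 1.42.0, count filters, pseudocounts of 0.5, 10 and 50, the mean over sgRNAs, and leaving out each oxaliplatin library. PCR reads carried no molecular identifiers, so intervals cover counting error only.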

Additional observations from a re-analysis of the deposited data

How the results depend on the processing

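The calls depended on the oxaliplatin libraries used and on sgRNAs with few PBS counts. All sgRNAs called higher numbered 509, but 0 with total-count scaling or with at least 3 PBS counts, 2026 with DESeq2 and 56 to 2677 on leaving out each oxaliplatin replicate. Member sgRNAs called higher numbered 2, but 0, 0, 8 and 0 to 10 in those settings. All sgRNAs called lower went from 0 to 29 with DESeq2 and 0 to 1114 by left-out replicate, and those of members to 0 to 6. Genes called higher went from 0 to 111 with DESeq2 and 10 to 463 by left-out replicate (members 0 to 2), and genes called lower to 15 and 0 to 200 (members 0 to 3). The highest values were those without replicate 1. Summed log2 fold changes changed sign for GLS2 (-0.26 without replicate 2, and up to 0.90 without replicate 1), for GLUL (-0.91 with total counts, and -0.66 without replicate 1 to 0.29 without replicate 3) and for PHGDH (-0.43 with total counts, and -0.15 without replicate 1 to 0.80 without replicate 3). The cause was not tested.

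The glutamine and glutamate median was 0.30 with total counts, 0.67 with a pseudocount of 50, -0.027 over sgRNAs with at least 100 PBS counts and 2.06 as a mean over sgRNAs. The aspartate and asparagine median was -0.0075, -0.73 and 2.47 with total counts, at least 100 PBS counts and the mean. That of serine synthesis was -1.55 with total counts and -1.43 as a mean. In alternatives chosen after seeing the data, genes with all sgRNAs below PBS numbered 47 with total counts and 13 to 44 by left-out replicate, and genes with all above 29 and 75 to 163. GLUD1 kept 1 of 4 sgRNAs above PBS with total counts and 3 to 4 by left-out replicate. No paired analysis was possible because PBS has a single library and shares fewer than 2 replicate numbers with oxaliplatin. A 0 in the PBS library bounds a fold change only from below.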
